A study of Mus musculus with 6 samples.

Results

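The 9 genes followed here mark alternatively activated or lipid-associated macrophages, and they were read in single-cell libraries of mouse liver tumors. They were Arg1, Mrc1, Chil3, Cd163 and Maf for alternative activation, and Trem2, Spp1, Gpnmb and Apoe for the lipid-associated state. The members were taken by symbol, and all 9 were among the 34099 genes of the count matrices. Their unique molecular identifiers (UMIs, 1 tag per captured RNA molecule) were summed in each mouse over each annotated cell type and over the 3 clusters of monocytes, numbered 11, 12 and 13. All mice were wild type male C57BL/6J, obtained at 8 weeks of age. They carried an orthotopic tumor of H22, a murine hepatocellular carcinoma (HCC) line implanted as ascites-grown cells. The stress group (3 mice) went through chronic unpredictable mild stress before engraftment, and the control group (3 mice) received the same tumor cells without stressors. Each mouse gave 1 library of mixed tumor cells, so the mouse is the replicate. H22 is 1 transplanted line, so the groups do not sample different tumors of origin.

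Macrophages and monocytes take up different programs according to the signals they meet. Interleukin-4 and interleukin-13 act through Stat6 to induce arginase 1, the mannose receptor and chitinase-like proteins, a state called alternative activation. Macrophages that clear lipid-rich debris turn on a partly separate program, in which the receptor Trem2 senses lipids and Apoe carries them out of the cell, and which in tumors is often read out by Spp1 and Gpnmb. None of these genes is exclusive to macrophages. In the liver, sinusoidal endothelial cells make the mannose receptor, and many epithelial and stromal cells secrete osteopontin, the product of Spp1.

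In GRCm38 (GENCODE M21), the genes lie at chr10:24915221-24927484 (Arg1, minus strand), chr2:14229392-14332057 (Mrc1, plus), chr3:106147554-106167564 (Chil3, minus), chr6:124304656-124330527 (Cd163, plus) and chr8:115682942-115707794 (Maf, minus). Those of the lipid-associated group lie at chr17:48346401-48354147 (Trem2, plus), chr5:104435118-104441050 (Spp1, plus), chr6:49036546-49070929 (Gpnmb, plus) and chr7:19696109-19699188 (Apoe, minus). RefSeq promoter windows (GRCm38.p6) were held for 7 of the 9 genes, in 10 windows, and the 250 bases before each start were searched on both strands for 4 motifs. These were CACGTG (E-box, read by MITF and TFEB), TGACTCA (AP-1), TGCTGA (the core of the MAF recognition element) and GAGGAAGT (PU.1). A full MAF element can hold the letters of both TGCTGA and TGACTCA. Of the 10 windows, 2 held a match, and these are shown because Chil3 and Spp1 are the members on which most of the values below turn, with the matched letters in capitals.

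Chil3 promoter (chr3:106167565-106167814, minus strand, printed 5′ to 3′ along the gene): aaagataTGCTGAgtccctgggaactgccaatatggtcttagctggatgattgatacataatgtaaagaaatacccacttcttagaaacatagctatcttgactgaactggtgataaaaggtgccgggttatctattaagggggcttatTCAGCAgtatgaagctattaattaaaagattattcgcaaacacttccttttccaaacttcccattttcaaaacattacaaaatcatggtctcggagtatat
Spp1 promoter (chr5:104434861-104435110, plus strand): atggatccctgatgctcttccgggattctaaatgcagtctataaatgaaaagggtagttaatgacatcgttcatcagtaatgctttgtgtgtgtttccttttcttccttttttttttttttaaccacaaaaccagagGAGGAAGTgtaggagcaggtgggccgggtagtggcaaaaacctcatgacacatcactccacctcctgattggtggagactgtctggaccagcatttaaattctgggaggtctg

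The Chil3 window held TGCTGA at bases 243 to 238 before the start and its reverse complement at bases 101 to 96. The Spp1 window held GAGGAAGT at bases 113 to 106 before the start. Among 32851 RefSeq promoter windows of the same length, 16.1% held TGCTGA, 2.44% held GAGGAAGT, 6.02% held CACGTG and 4.46% held TGACTCA. A match describes letters only, and binding was not measured.

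The annotation held 58794 cells, of which 6260 were monocytes (2481 in cluster 11, 1982 in cluster 12 and 1797 in cluster 13). Libraries held 149558935 to 187728350 UMIs. Control mouse 2 and stress mice 2 and 3 stood apart, with medians over all cells of 9032, 7656 and 7166 UMIs per cell against 16864.5 to 20478 in the other 3 libraries. They held 1385, 1616 and 1749 monocytes against 420 to 612. Within monocytes alone the medians were 4725, 4789 and 6646 UMIs in these mice and 4222 to 5882.5 in the others. The division is thus one of the all-cell median, which moves with the mix of cells, and not of monocyte depth. Pairs of libraries shared 13 to 40 annotated barcodes. The summed level of 9 monocyte and macrophage markers was 5226 to 7630 counts per 1000000 UMIs (CPM) in monocytes and 2572 to 7785 CPM in neutrophils, and at most 685 CPM in the other cell types. Of the 9 markers, 7 were highest in monocytes, while Lyz2 and Ly6c2 were highest in neutrophils. In clusters 11 and 12 that sum was 6789 to 9734 CPM and in cluster 13 it was 2009 to 3527 CPM. Control libraries were counted with Cell Ranger 9.0.0 and stress libraries with 7.1.0, and the effect of this version cannot be told apart from that of stress.

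Each monocyte cluster carried its own set of the 9 genes. Since the clusters and cell types were made from these same cells, their levels are a description, and no test was run between them. In sums over cells, fewer cells with a gene and less RNA per cell cannot be told apart. Arg1, which splits arginine into ornithine and urea, was highest in cluster 13, at 1931 to 3406 CPM over the 6 mice (2855 ± 529, SD, n = 6). Cluster 11 had 426 to 1142 CPM and cluster 12 had 14.2 to 366 CPM, and in every mouse the order was 13, 11, 12 with ranges that did not overlap. The mean over mice was 103 CPM in dendritic cells (DCs), the next cell type, and 92.1% of all Arg1 UMIs lay in monocytes.

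Chil3, a secreted chitinase-like protein, was the gene of cluster 12. There its level ran from 529 to 7101 CPM (mean 3356 ± 2826, SD, n = 6), and in all 6 mice it was above cluster 13 and cluster 11, although the ranges overlapped. Among cell types, Chil3 was highest in neutrophils, at 3691 ± 1763 CPM (SD, n = 6), followed by monocytes at 1270 ± 1119 CPM and inflammatory myeloid cells at 387 ± 541 CPM. Its near-identical neighbor Chil4 had 1 UMI in monocytes and 0 in all other cell types. How reads that match both copies were assigned was not tested.

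Mrc1, the mannose receptor, and Cd163, the receptor for haptoglobin-bound hemoglobin, were cluster 11 genes among monocytes. Mrc1 reached 260 ± 145 CPM (SD, n = 6) in cluster 11, against 34.4 ± 22.5 in cluster 13 and 24.4 ± 26.7 in cluster 12. Cluster 11 lay above both others in all 6 mice, while clusters 13 and 12 did not differ beyond their spread. Cd163 was scarce everywhere, with 207 UMIs in all cells, 149 of them in cluster 11. Its level in cluster 11 was 10.5, 0.436 and 20.6 CPM in control mice 1, 2 and 3 and 51.9, 1.28 and 4.56 CPM in stress mice 1, 2 and 3. The summed level of 5 Kupffer cell markers (Clec4f, Vsig4, Timd4, Cd5l, Marco) in cluster 11 was 235, 12.0 and 704 CPM in the control mice and 875, 71.4 and 162 CPM in the stress mice. It was highest and lowest in the same mice as Cd163, and its part in the Cd163 values was not tested.

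**Figure D1:**
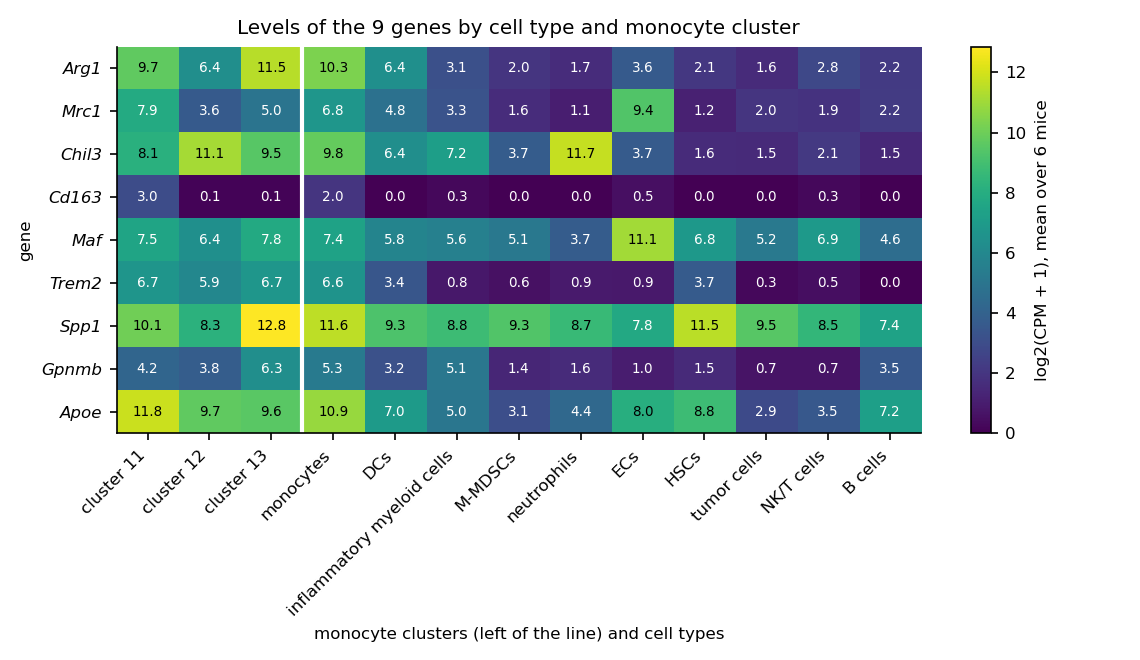
Level of each of the 9 genes (rows) in the 3 monocyte clusters and the 10 cell types (columns), as log2(CPM + 1) averaged over 6 mice, with the value in each cell. Arg1, Spp1 and Gpnmb peak among monocytes in cluster 13, Chil3 in cluster 12, and Mrc1, Cd163 and Apoe in cluster 11. Mrc1 and Maf are highest in ECs.

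Outside the macrophage lineage, endothelial cells (ECs) held most of the Mrc1 and Maf. Mrc1 was at 682 ± 176 CPM (SD, n = 6) in ECs against 112 ± 34.2 in monocytes, without overlap between the ranges. Maf, a transcription factor of macrophages that also acts in T cells and endothelium, was at 2143 ± 281 CPM in ECs against 173 ± 53.8 in monocytes, again without overlap. Monocytes were followed by HSCs (hepatic stellate cells) at 133 ± 93.2 and NK/T cells at 124 ± 25.5 CPM, and these neighbors did not differ beyond their spread. ECs accounted for 87.3% of all Mrc1 UMIs and 78.8% of all Maf UMIs, although they held 7.09% of all UMIs.

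The lipid-associated genes divided between clusters 11 and 13. Spp1, a secreted glycoprotein that binds integrins and CD44, was at 8007 ± 3228 CPM (SD, n = 6) in cluster 13, with 1104 ± 270 in cluster 11 and 325 ± 122 in cluster 12. The 3 clusters kept this order in all 6 mice without overlap. Gpnmb, a transmembrane glycoprotein of lysosome-rich macrophages, followed the same cluster, at 96.2 ± 62.0 CPM against 22.7 ± 18.3 and 19.7 ± 17.1. Apoe was highest in cluster 11, at 1212 to 10824 CPM (5101 ± 4063), and clusters 12 (1215 ± 1021) and 13 (902 ± 524) did not differ beyond their spread. Trem2 did not single out a cluster, with 118 ± 58.2 CPM in cluster 13, 115 ± 64.9 in cluster 11 and 67.2 ± 30.6 in cluster 12. Monocytes held 87.9% of its UMIs at a mean of 107 ± 56.4 CPM, and it had no UMI in B cells. HSCs came next at 31.2 ± 49.2 CPM, lower in all 6 mice but with a range that overlapped that of monocytes.

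Spp1 and Gpnmb were not confined to monocytes. Tumor cells held 79.1% of all Spp1 UMIs and monocytes 14.5%, with tumor cells also holding 82.7% of all UMIs of any gene. The Spp1 level was 762 ± 217 CPM in tumor cells and 4641 ± 5082 CPM in HSCs, which were counted over only 6 to 50 cells per mouse. Of the tumor cell and hepatocyte markers, Krt8 (300 CPM), Epcam (166), Alb (21.9), Ttr (297), Fgb (63.2) and Trf (272) were also highest in HSCs. Krt18, Cldn6, Afp, Apoa1 and Apoa2 were highest elsewhere. The part of such RNA in the HSC values of the members was not tested. For Gpnmb, monocytes held 51.6%, inflammatory myeloid cells 21.0% and tumor cells 16.8% of the UMIs. Monocytes (54.9 ± 44.3 CPM) and inflammatory myeloid cells (43.1 ± 29.4 CPM) did not differ beyond their spread.

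**Figure D2:**
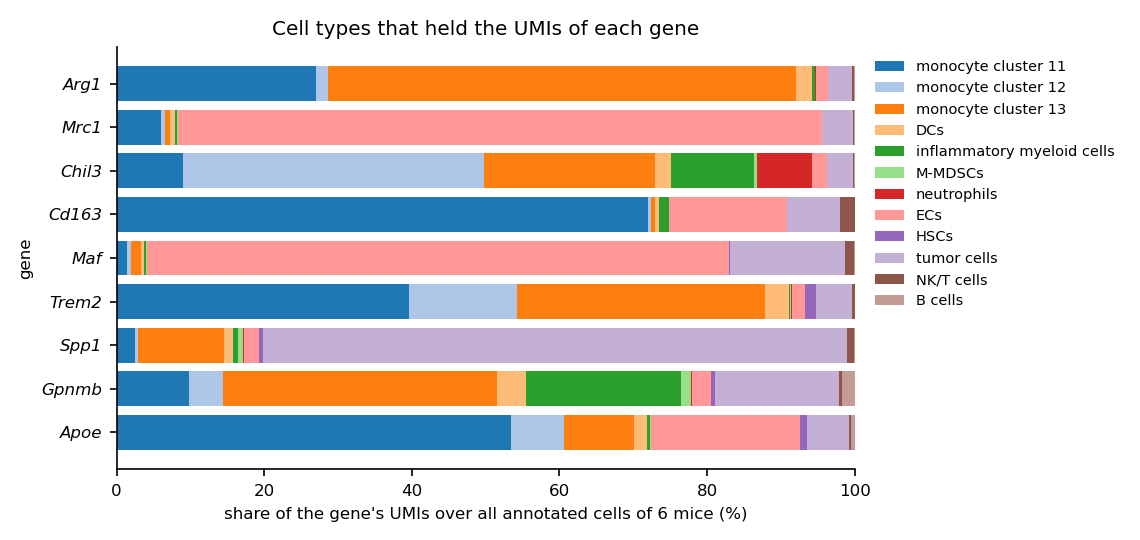
Share of each gene's UMIs, in percent over all annotated cells of the 6 mice, by cell type, with monocytes split into clusters 11, 12 and 13 (stacked bars). Monocytes hold 92.1% of Arg1 and 87.9% of Trem2, ECs hold 87.3% of Mrc1 and 78.8% of Maf, and tumor cells hold 79.1% of Spp1.

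The share of cells with a UMI gave the same picture once every cell was thinned to 1000 UMIs, which left out 89 of the 6260 monocytes. In cluster 13, 76.2% of thinned cells had Arg1 (95% exact interval 74.1 to 78.1%, counting error only) and 73.7% had Spp1, against 28.3% and 24.4% in cluster 11 and 4.11% and 10.6% in cluster 12. Before thinning the cluster 13 shares were 88.4% and 86.5%. In B cells, which should lack these genes, the thinned shares were 0.222% for Arg1 and 6.0% for Spp1 at median depths of 4720 UMIs in B cells and 4846 in cluster 13. The thinned Spp1 share was 7.0% in ECs, 13% in inflammatory myeloid cells and 13.2% in NK/T cells, and the 10.6% of cluster 12 lay between these shares. Chil3 was found in 55.1% of cluster 12 cells, and in 32.8% to 88.6% depending on the mouse. Apoe was found in 54.1% of cluster 11 cells, and in 42.5% to 90.3% depending on the mouse, against 0.891% of NK/T cells and 13.8% of B cells. Trem2 was seen in 10.2% of cluster 13 cells and in 0 of 450 B cells, which allows a share of up to 0.667% with a UMI. Cd163 was seen in 0.698% of cluster 11 cells and in 0 of 1972 cells of cluster 12, which allows up to 0.152%.

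Within a cluster, some of the genes occurred in the same cells. The means and shares below are over cells pooled from the 6 mice, so their size also holds differences between mice. Only the direction was read in each mouse. In cluster 11, thinned cells with an Arg1 UMI carried 2.02 Spp1 UMIs on average and those without carried 0.511, and this held in 6 of 6 mice. In cluster 13 the corresponding means were 10.4 and 4.19 UMIs, again higher in 6 of 6 mice. In cluster 12 Spp1 was in 29.6% of the 81 cells with Arg1 and 9.84% of the others, with a higher mean in 5 of 6 mice. Cells of cluster 11 with Mrc1 carried 7.75 Apoe UMIs against 2.52 in cells without it (6 of 6 mice), and 0.491 Spp1 UMIs against 1.006 (higher in 0 of 6 mice). Cells with Trem2 carried more Apoe in every cluster and mouse, with means of 6.07 against 3.002 UMIs in cluster 11 and 2.02 against 0.865 in cluster 13. For Arg1 and Mrc1 in cluster 11, Mrc1 was found in 12.8% of cells with Arg1 and 13.1% of cells without, and its mean was higher with Arg1 in 2 of 6 mice.

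Over the 28 clusters of all cell types, the genes most like each member were read from the correlation of log2(CPM + 1) with UMIs pooled over mice. These correlations are a description, since the 28 points share libraries and differ in depth. Arg1 was most like Ccl24 (r = 0.96), Ccl12 (0.94) and Mmp12 (0.93). Chil3 was most like Fpr2, Pilra and Itgam (each r = 0.97), and Trem2 was most like Mmp19 (0.98), Slc7a2 (0.96) and Ccl7 (0.95). Cd163 was most like the Kupffer cell markers Marco (0.93) and Cd5l (0.91), followed by Ccl8 (0.75). For genes of endothelium, Mrc1 was most like Plxnd1, Clec1b and Mertk (each 0.98), and Maf most like Il6st, Ntn4 and Stab1 (each 0.97). Spp1 had the loosest neighbors, Pkm (0.79), Fam162a (0.78) and Esd (0.78). Gpnmb was most like Fam20c (0.88), Gm31718 (0.87) and Cd68 (0.86), and Apoe most like Cln8 (0.95), Sdc3 (0.93) and Msantd3 (0.93). Among the members themselves, Mrc1 and Maf (0.92) and Arg1 and Trem2 (0.89) were closest, while Spp1 ran opposite to Mrc1 (-0.43) and Maf (-0.38).

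The comparison of stress with control mice asked whether either program moved with stress. No member was called in monocytes by edgeR's quasi-likelihood test at an adjusted p of 0.05, over a background of 0.122% of the 12251 genes tested. None had an unadjusted p under 0.05, while 1470 of all genes tested did. DESeq2 called none of the members, here or in any other cell type or cluster tested. Log2 fold changes, stress against control, ran from -1.22 for Chil3 to 0.12 for Maf among the 8 members with a mean of at least 50 CPM. Over all 9 members 2 were above 0 and 7 below, with a median of -0.34 against -0.01 for all genes. This split was not stable, since leaving out 1 mouse gave 0 members above 0 (without stress mouse 1) to 4 (without control mouse 1). Arg1, Mrc1, Cd163, Apoe and Maf each changed sign without at least 1 of the mice. A further term, the library term, was added after the data were seen and marks the libraries with the lower all-cell medians. With the library term 5 members were above 0, and Chil3, Gpnmb and Apoe were reversed. For no member with a mean of at least 50 CPM did the monocyte levels of the groups separate, while 6.82% of all genes were higher and 11.2% lower in every stress mouse than in every control mouse.

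**Figure D3:**
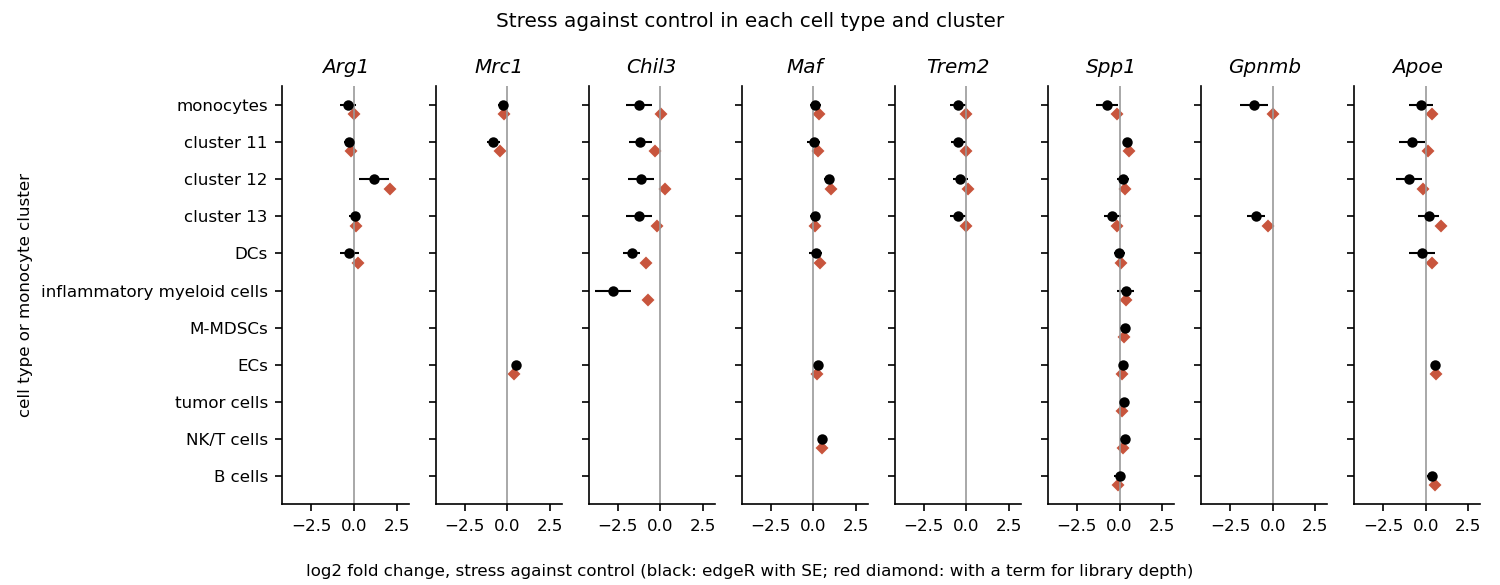
log2 fold change of stress against control (horizontal axis) for the 8 members with a mean of at least 50 CPM, in monocytes, their clusters and other cell types (rows). Black points are edgeR estimates with their standard errors (3 mice against 3). Red diamonds are estimates with a term for the libraries with the lower median UMIs per cell over all cells (the library term). No member passed an adjusted p of 0.05, and the Chil3 estimates in monocytes are -1.22 and 0.06.

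Chil3 in monocytes was at 1895, 246 and 3220 CPM in control mice 1, 2 and 3 and at 1100, 445 and 712 CPM in stress mice 1, 2 and 3. The log2 fold change was -1.22 ± 0.76 (SE, adjusted p = 0.549, edgeR). Control mouse 2 was the lowest of all 6 mice, so the groups overlapped. Among the 3 libraries with the higher all-cell medians, the stress mouse was below both controls. Among the 3 with the lower medians both stress mice were above the control. With the library term, which does not follow monocyte depth, the fold change was 0.06 (adjusted p = 0.977, edgeR). The summed level of 5 neutrophil markers in monocytes was 602, 487 and 509 CPM in control and 333, 88.4 and 327 CPM in stress mice, lower in every stress mouse. Its part in the Chil3 values was not tested.

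Apoe followed the same division of the libraries. It was at 4413, 826 and 2673 CPM in the control mice and at 4183, 1238 and 886 CPM after stress. The log2 fold change was -0.29 ± 0.69 (adjusted p = 0.883, edgeR), and 0.36 with the library term. Control mouse 2 and stress mice 2 and 3 were the 3 lowest. Trem2 was lowest in these mice as well, at 61.5, 61.8 and 51.9 CPM, against 130 to 188 CPM in the other 3.

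For Spp1, monocyte levels were 7473, 1790 and 4959 CPM in control mice and 4422, 895 and 2812 CPM after stress (log2 fold change -0.75 ± 0.63, adjusted p = 0.652, edgeR). Stress was below control within each replicate number, although in monocytes mice of unlike numbers could correlate as well as those of like numbers. When the replicate number was entered as a block, the fold change was -0.81 and the adjusted p = 0.0311, and it was the only member called in monocytes under the block, which called 1.67% of all genes tested against 0.122% without it. The share of monocyte UMIs from cluster 13, where Spp1 is highest, was 57.4%, 20.05% and 51.0% in the control mice and 36.4%, 13.2% and 30.0% in the stress mice. It was also lower under stress within each number. Without cluster 13 the Spp1 fold change in the remaining monocytes was 0.44 (adjusted p = 0.508).

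Arg1 was at 1900, 990 and 1870 CPM in monocytes of control mice and at 1708, 475 and 1434 CPM after stress (log2 fold change -0.34 ± 0.47, adjusted p = 0.789, edgeR). Mrc1 was at 171, 121 and 80.9 against 124, 86.0 and 90.4 CPM (-0.25 ± 0.26, adjusted p = 0.715). Gpnmb was at 99.9, 12.6 and 114 against 58.8, 9.45 and 34.6 CPM (-1.11 ± 0.82, adjusted p = 0.611). The Gpnmb fold change was 0.0014 with the library term and 0.00094 without cluster 13. In each case the ranges of the 2 groups overlapped. Arg1 and Gpnmb were lower under stress within each replicate number, and with the block neither was called (adjusted p = 0.196 and 0.0904). Maf was at 132 to 203 CPM in control and 105 to 258 CPM in stress mice (0.12 ± 0.33, adjusted p = 0.899).

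Testing each cluster on its own separated the level within a cluster from the mix of clusters. The calls below are with a filter on low counts. Without it some members were called in each cluster, where 2.33%, 1.95% and 1.77% of all genes were called in clusters 11, 12 and 13. In cluster 11 no member was called by edgeR (background 0.102%), and none had an unadjusted p under 0.05, while 1232 of all 10809 genes tested did. Apoe was at 10824, 1212 and 7979 CPM in control mice and 7078, 1939 and 1572 CPM after stress, and the log2 fold change was -0.81 ± 0.74 (adjusted p = 0.721), and 0.14 with the library term. Mrc1 was at 519, 172 and 330 against 244, 137 and 159 CPM (-0.80 ± 0.36, adjusted p = 0.439). For Apoe the range of the controls held all stress mice. For Mrc1 the groups overlapped.

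Within cluster 12 no member was called either (background 0.218%). Maf alone of the members had an unadjusted p under 0.05, as did 1128 of all 8697 genes tested. Maf was at 59.6, 57.7 and 69.7 CPM in control mice and at 165.1, 80.4 and 97.1 CPM in stress mice, so that every stress mouse was above every control mouse. The log2 fold change was 0.90 ± 0.28 (adjusted p = 0.233, edgeR), and 6.22% of all genes tested in this cluster separated in the same direction. The summed level of 7 endothelial markers in cluster 12 also separated the groups, at 86.1, 135 and 92.3 CPM in control and 223, 146 and 178 CPM in stress mice, and its part in the Maf values was not tested. Arg1 in cluster 12 was at 152, 14.2 and 92.3 against 366, 30.0 and 125 CPM (1.19 ± 0.89, adjusted p = 0.615). The groups overlapped, and the fold change was 0.18 without stress mouse 1 and 1.76 without control mouse 1. Chil3 was at 7101, 529 and 6312 CPM in control mice and 3703, 965 and 1525 CPM after stress, giving a log2 fold change of -1.13 ± 0.75 (adjusted p = 0.562), which was 0.30 with the library term. Again control mouse 2 was below all stress mice and the other controls above them.

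In cluster 13 no member was called (background 0.0984%). Mrc1 alone of the members had an unadjusted p under 0.05 there, as did 795 of all 9147 genes tested, at a mean below 50 CPM (17.0 to 77.4 CPM over mice). Spp1 was at 12385, 6388 and 9082 CPM in control mice and 10026, 3088 and 7075 CPM after stress (log2 fold change -0.42 ± 0.49, adjusted p = 0.863, edgeR). Gpnmb was at 147, 45.5 and 192 against 85.2, 30.3 and 76.6 CPM (-0.97 ± 0.54, adjusted p = 0.672). Both genes were lower in stress than in control within each number, but the groups overlapped. Arg1 was at 2692 to 3130 CPM in control and 1931 to 3406 CPM in stress mice (0.04 ± 0.33, adjusted p = 0.983). A p that misses the threshold does not show that these groups are equal.

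**Figure D4:**
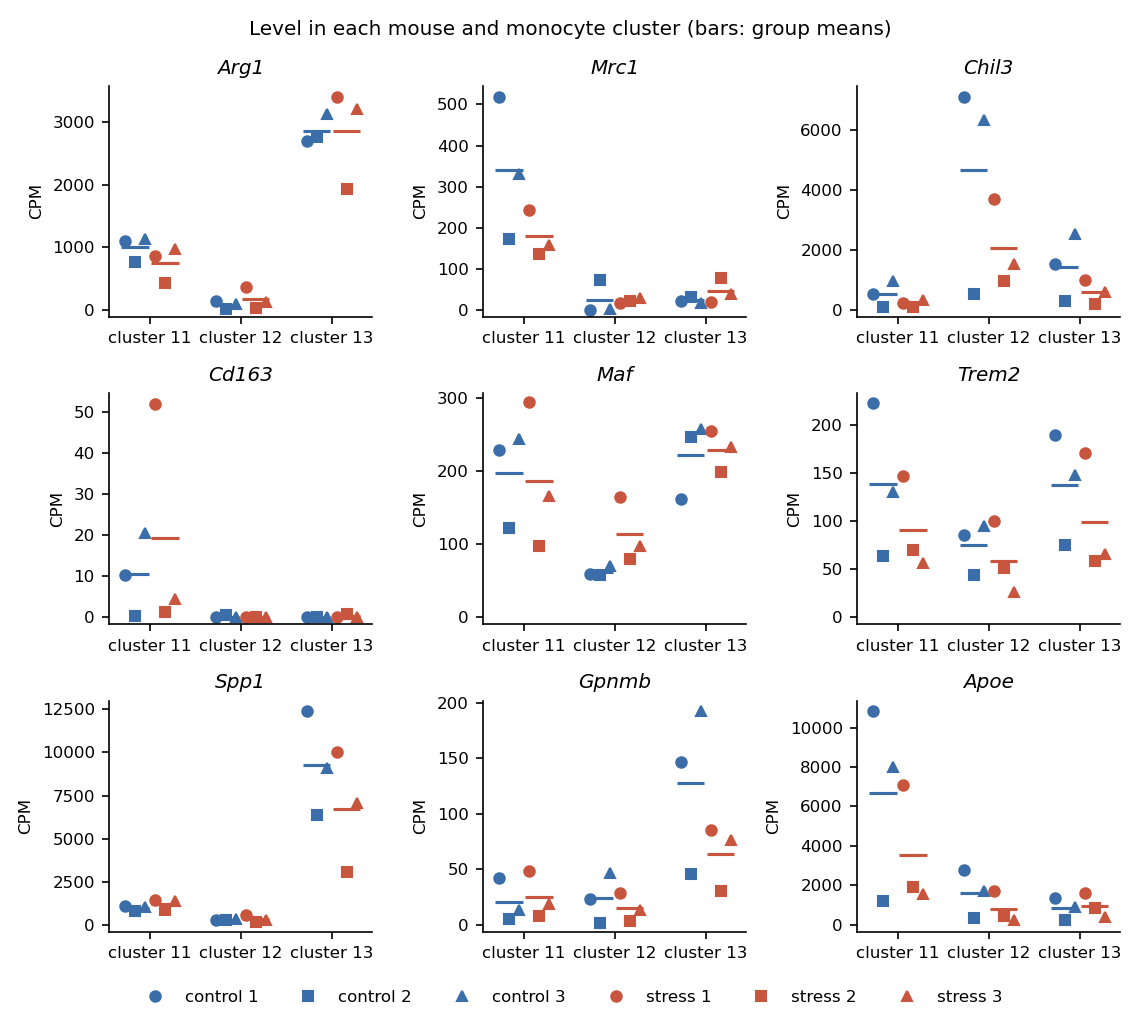
Level in CPM (vertical axis, linear, starting at 0) of each gene in clusters 11, 12 and 13 of each mouse. Blue marks control and red marks stress mice, the symbol gives the replicate number, and the bars are group means. The ranges of the 2 groups overlap for every member with a mean of at least 50 CPM except Maf in cluster 12.

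Markers of other cell types also differed between mice inside these clusters. The summed level of 6 dendritic markers, mostly H2-Aa, was 696, 560 and 583 CPM in cluster 12 of control mouse 2 and stress mice 2 and 3, and 32.6 to 105 CPM in the other 3. In cluster 13 it was 957, 1512 and 617 CPM against 30.5 to 146 CPM. H2-Aa averaged 4682 CPM in cluster 11 and 2498 CPM in DCs, so this sum does not tell DC RNA from that of monocytes. Each other gene of that list averaged at most 8.51 CPM in cluster 12 and 9.22 CPM in cluster 13. Of the NK/T markers, 5 genes summed to 2.40 to 46.4 CPM in monocytes of control mice and to 57.4 to 95.4 CPM in stress mice, without overlap. The 5 neutrophil markers summed to 812 to 3699 CPM in cluster 12 of control mice and to 119 to 1540 CPM in stress mice. Tumor cell markers (5 genes) summed to 119 to 273 CPM in control and 103 to 209 CPM in stress monocytes. The part of cells of other types in the member values was not tested.

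Beyond monocytes, Chil3 had the lowest fold change of the members tested in DCs, inflammatory myeloid cells and M-MDSCs. In DCs it was at 177, 47.6 and 288 CPM in control mice and at 58.8, 33.5 and 57.9 CPM after stress, and the log2 fold change was -1.67 ± 0.49 with an adjusted p of 0.0971 (edgeR, background 2.64%). The tumor cell markers Krt18, Cldn6, Afp and Epcam averaged 223, 82.6, 44.8 and 86.6 CPM in DCs, against 423, 137, 78.2 and 145 CPM in tumor cells. In DCs the most abundant of the 9 monocyte and macrophage markers were Lyz2, C1qb and C1qa, at 319, 60.8 and 58.7 CPM. In monocytes they were at 3793, 668 and 799 CPM. The part of tumor cell RNA and of monocyte RNA in the DC values was not tested. In inflammatory myeloid cells Chil3 was at 595, 24.4 and 1401 against 198, 71.0 and 32.3 CPM (-2.79 ± 1.07, adjusted p = 0.994). The 5 neutrophil markers summed to 16904 to 35926 CPM in these cells, against 79202 to 224147 CPM in neutrophils, and Csf3r was at 500.3 CPM here and 117 CPM in neutrophils. The 9 monocyte and macrophage markers summed to 201 to 685 CPM. No gene of any kind was called in inflammatory myeloid cells (background 0%), where 365 genes had an unadjusted p under 0.05 and DESeq2 called 6. In M-MDSCs Chil3 stayed below 50 CPM on average, at 3.06 to 72.2 CPM in control and 3.74 to 9.11 CPM in stress mice, and no member was called (background 0.561%). The label M-MDSC (monocytic myeloid-derived suppressor cells) was not borne out by these markers. The 5 tumor cell markers summed to 547 to 859 CPM in M-MDSCs against 695 to 974 CPM in tumor cells, and the 9 monocyte and macrophage markers to 24.3 to 144 CPM. Of the 350 M-MDSCs, 129 were left without called doublets. The part of tumor cell RNA in the M-MDSC values was not tested.

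Control mouse 2 was below the other 2 controls for Chil3 in all 3 of these cell types and below every stress mouse in 2 of them. Without control mouse 2, Chil3 was called in DCs (log2 fold change -2.20, adjusted p = 0.00146, edgeR) and in M-MDSCs (-3.52, adjusted p = 0.000335). That fit called 3.66% of all genes tested in DCs and 0.926% in M-MDSCs. Control mouse 2 was singled out by its low Chil3, so these calls add no support for a fall. Over the fits with each mouse left out, the Chil3 fold change in DCs ran from -2.20 to -0.92. With the library term the fold change was -0.84 in DCs (adjusted p = 0.263), -0.72 in inflammatory myeloid cells and -1.39 in M-MDSCs, none of them called. Without called doublets the fold change in DCs was -2.81 (adjusted p = 0.22, edgeR). Neutrophils, the cells with the highest level, were not tested because control mouse 1 had 4 of them. There Chil3 was at 2199 to 3698 CPM in control and 2260 to 6995 CPM in stress mice.

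**Figure D5:**
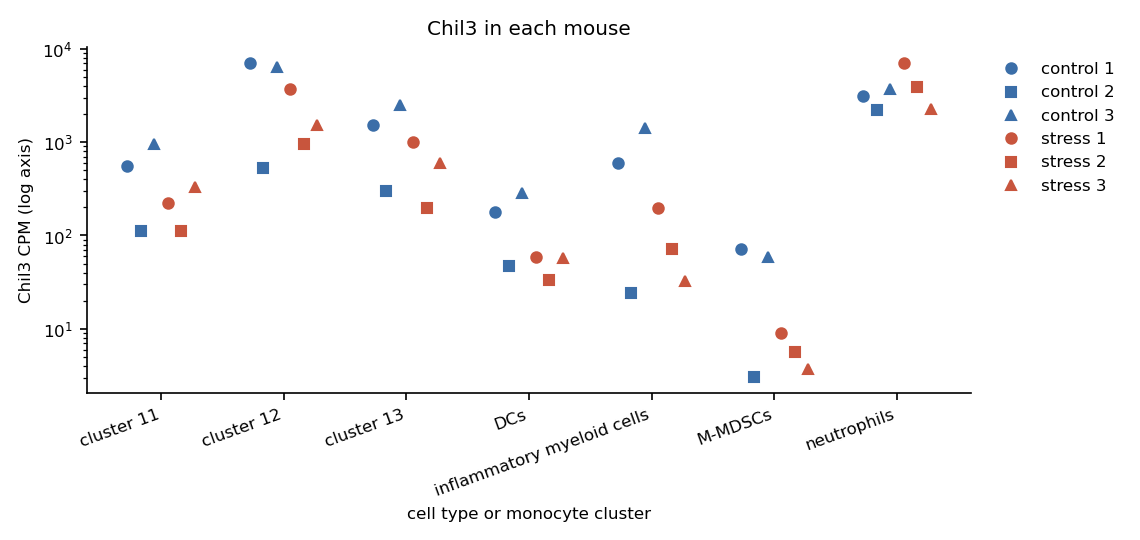
Chil3 in CPM (log axis) in the 3 monocyte clusters and in 4 other cell types (DCs, inflammatory myeloid cells, M-MDSCs and neutrophils) of each mouse, with blue for control and red for stress, and the symbol for the replicate number. Control mouse 2 lies below the other 2 control mice in all 7 groups of cells.

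In ECs, the cells with the highest Mrc1 and Maf levels, both genes separated the groups. Mrc1 in ECs was at 486, 593 and 596 CPM in control mice and 634, 823 and 962 CPM in stress mice, so that all stress mice were above all controls. The log2 fold change was 0.50 ± 0.18 (adjusted p = 0.254, edgeR), which is not called. Maf was at 1851, 1963 and 2006 CPM in control and 2241, 2158 and 2641 CPM in stress mice, also without overlap (0.25 ± 0.14, adjusted p = 0.422). Of the 14090 genes tested in ECs, 0.213% were called and 12.5% were higher in every stress mouse. These 2 of 4 members that could be followed in ECs are to be read against that share. The 7 endothelial markers summed to 5976, 5296 and 6756 CPM in ECs of control mice and to 7420, 7119 and 7473 CPM in those of stress mice. They separated the groups in the same direction as Mrc1 and Maf, and their part in these values was not tested. The tumor cell markers Krt18, Krt8, Cldn6, Afp and Epcam averaged 98.4, 1.97, 49.9, 21.1 and 38.7 CPM in ECs. The part of tumor cell RNA in the EC values was not tested either. Apoe in ECs was at 200 to 231 CPM in control and 213 to 421 CPM in stress mice (0.53 ± 0.23, adjusted p = 0.328).

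In NK/T cells Maf was at 96.0, 96.7 and 127 CPM in control mice and 132, 128 and 164.5 CPM in stress mice. The groups did not overlap, as for 6.8% of the genes tested there, and the log2 fold change was 0.49 ± 0.18 (adjusted p = 0.273, edgeR, background 0.857%). Spp1 in tumor cells was at 462, 906 and 598 CPM in control and 750, 1073 and 785 CPM in stress mice (0.27 ± 0.23, adjusted p = 0.439, edgeR), where 21.4% of all genes were called. That share was 6.14% without control mouse 3, 8.86% without control mouse 1 and 29.9% without control mouse 2. The Spp1 levels of the groups overlapped. In B cells no member was called (background 0.483%), with Apoe at 128 to 145 CPM in control and 116 to 223 CPM in stress mice (0.34 ± 0.28, adjusted p = 0.693). Over all these cell types together, the members with a mean under 50 CPM had fitted log2 fold changes from -2.84 to 2.33, and none was called.

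Whether the stress effect differed between places was tested directly. No member was called for a difference between the 3 monocyte clusters, and neither was any of the 10545 genes tested (background 0%, 521 genes with an unadjusted p under 0.05, edgeR). Apoe had the smallest unadjusted p among members (0.000535, adjusted p = 0.467), with log2 fold changes of -0.81, -0.99 and 0.17 in clusters 11, 12 and 13. Without the filter on low counts some members were called for a difference between clusters, where 0.663% of all genes were called. No member differed between ECs and monocytes (background 0%, 1255 genes at an unadjusted p under 0.05), where Mrc1 came closest with an adjusted p of 0.625. Between tumor cells and monocytes no member was called while 0.0634% of genes were. When clusters 11, 12 and 13 were given equal weight in each mouse, the difference in mean log2(CPM + 1) ran from -0.91 for Chil3 to 0.61 for Mrc1. Mrc1 was at 0.14 with a pseudocount of 10 in place of 1 CPM, when Maf was highest at 0.21, and at 0.27 without control mouse 1 and 1.12 without control mouse 2. The exact two-sided permutation test gave an adjusted p of 0.9 for each of the 9 members, and the smallest raw p was 0.4, with 0.1 the smallest that 3 against 3 mice can give.

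The other genes of both programs gave few calls. Of 23 further alternative-activation genes, 20 could be tested in monocytes, and 17 were above 0 and 3 below, with a median log2 fold change of 0.43 against -0.01 for all genes. None was called by edgeR, and 3 had an unadjusted p under 0.05, as did 1470 of all 12251 genes tested in monocytes. The most abundant were Tgm2, a cross-linking enzyme (557 ± 125 CPM in control, 691 ± 222 in stress mice, SD, n = 3 each, adjusted p = 0.617), Il1rn, the interleukin-1 receptor antagonist (222 ± 119 and 441 ± 160, adjusted p = 0.363), and Ccl24, a chemokine for eosinophils (284 ± 271 and 360 ± 225, adjusted p = 0.817). In DCs (background 2.64%) the chemokines Ccl22 and Ccl17 rose, from 41.6 ± 33.3 to 176 ± 87.8 CPM (log2 fold change 2.004 ± 0.42, adjusted p = 0.0288, edgeR) and from 190 ± 135 to 528 ± 181 CPM (1.54 ± 0.37, adjusted p = 0.0467). Neither was called without called doublets (1.76 and 1.20, adjusted p = 0.192 and 0.317), where calls over all genes in DCs went from 278 to 8. The DCs came from clusters 19 and 20, and cluster 20 made up 25.3%, 40.5% and 25.9% of them in control and 50.4%, 63.3% and 52.2% in stress mice. The 6 dendritic markers summed to 1901 to 2501 CPM in DCs of control mice and to 3489 to 3770 CPM in those of stress mice. The part of this make-up, and of the tumor cell and monocyte RNA in DCs given above, in the DC values was not tested. Il4ra, the interleukin-4 receptor, rose in NK/T cells (background 0.857%) from 28.1 ± 4.71 to 53.3 ± 8.36 CPM (0.96 ± 0.20, adjusted p = 0.0416). In tumor cells Tgfb1 was at 37.1 ± 2.12 CPM in control and 32.8 ± 3.45 CPM in stress mice (fell by 0.32 on the log2 scale, adjusted p = 0.0341), among the 21.4% of genes called there. Il10 was scarce in tumor cells, at 1.90 ± 0.246 and 1.08 ± 0.0794 CPM (adjusted p = 0.0108), and the part of RNA from other cells in these values was not tested. With 1 mouse left out, added after the data were seen, Il10 was called in 6 of 6 fits, Ccl22 in 3, Tgfb1 in 2 and Ccl17 and Il4ra in 1 each.

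Of 25 further lipid-associated genes, all could be tested in monocytes, 12 above 0 and 13 below, with a median log2 fold change of -0.14. None was called by edgeR and 4 had an unadjusted p under 0.05, as did 1470 of all 12251 genes tested. The most abundant were Lgals3 (galectin-3, 2046 ± 809 CPM in control and 1702 ± 408 in stress mice, adjusted p = 0.817), Npc2, which hands cholesterol out of lysosomes (1437 ± 122 and 995 ± 130, adjusted p = 0.352), and the Trem2 adaptor Tyrobp (1112 ± 172 and 1196 ± 196, adjusted p = 0.789). Npc2 fell in tumor cells (log2 fold change -1.05 ± 0.20, adjusted p = 0.0131, edgeR) and in NK/T cells (-0.70 ± 0.15, adjusted p = 0.0481), but was not called in the latter without called doublets (-0.44, adjusted p = 0.0979). Also lower in tumor cells were the cathepsins Ctsd (-0.59) and Ctsb (-0.36) and the lysosomal transcription factor Mitf (-0.62). These were 4 of 23 tested, where 21.4% of all genes were called with all 6 mice. With 1 mouse left out Npc2 and Ctsd were called there in 4 of 6 fits, Mitf in 2 and Ctsb in 1, and Npc2 in NK/T cells in 0 of 6. Fabp5, a fatty acid carrier, rose in DCs from 265 ± 171 to 760 ± 200 CPM (1.59 ± 0.36, adjusted p = 0.0372, edgeR, background 2.64%). Of 8 macrophage transcription factors 6 were above 0 and 2 below in monocytes, and none was called or had an unadjusted p under 0.05. Cebpb was at 2157 ± 230 CPM in control and 2525 ± 179 in stress mice (adjusted p = 0.584, edgeR), and Zeb2 at 1576 ± 306 and 1782 ± 107 CPM (adjusted p = 0.691). Irf8 rose in DCs (1.30 ± 0.24, adjusted p = 0.0144) and Hif1a in NK/T cells (0.80 ± 0.16, adjusted p = 0.0399). Without called doublets neither Irf8 (1.05, adjusted p = 0.222) nor Fabp5 (1.39, adjusted p = 0.218) was called in DCs, in which the shares of clusters 19 and 20 differed as given above. With 1 mouse left out Irf8 was called in 5 of 6 fits, and Fabp5 and Hif1a in 1 each. In NK/T cells without called doublets, 4.64% of all genes were called, against 0.857% with them. There Il4ra (0.82, adjusted p = 0.0264, edgeR) and Hif1a (0.61, adjusted p = 0.0159) stayed called. Fabp4 (-1.77, adjusted p = 0.0151), Ctsd (-0.61, adjusted p = 0.0315) and Irf4 (-0.78, adjusted p = 0.0469) were called only there.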

How the data were processed

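Liver tumors of 3 control and 3 stress mice were sequenced as 10x Genomics libraries. The deposited matrices hold raw counts of UMIs for each gene in each cell, which the authors made with Cell Ranger 9.0.0 (control) or 7.1.0 (stress) per the file headers, with an annotation of mouse, cluster and cell type for 58794 of 61374 barcodes. Per the study's methods, cells needed 200 detected genes or more and a mitochondrial share of 20% or less and doublets were taken out with Scrublet. The labels name mm10, and positions are from GENCODE M21 (GRCm38). The members and gene lists were chosen with earlier results of these data known.

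For each mouse, counts were added up over each cell type or cluster and scaled to CPM. The sums were compared by edgeR 4.0.16 under R 4.3.3 (quasi-likelihood test, TMM normalization, filterByExpr, Benjamini-Hochberg adjustment over all genes, threshold 0.05) between the 3 control and 3 stress mice. Neutrophils and HSCs, with under 10 cells in a mouse, were not tested. Differences of stress effects were tested as interaction terms, and levels with equal weight per cluster by exact permutation. Levels between cell types are means over mice with SD. Cells were thinned to 1000 UMIs for shares of cells with a UMI, and the intervals are exact (95%). A floor is 3 counts, and both cover counting error only.

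A fold is given where a member's mean over the 6 mice was at least 50 CPM, and other members are given by range, apart from Mrc1 in cluster 13 and Chil3 in M-MDSCs, named after their values were seen. For each member the 3 most alike genes over the 28 clusters are named. Of each list, the genes called (up to 5 per direction) are named and, in monocytes, where none was called, the 3 most abundant, of which 1 transcription factor is not reported here. The most abundant genes of other cell types and clusters are not printed.

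Replicate numbers are in the labels. Deviations of same-numbered mice correlated at 0.15 to 0.48 in monocytes and 0.30 to 0.42 in cluster 13, over 0.1 in every pair, and not in every pair elsewhere, so the numbers were read as pairs in these sums only. In monocytes control 2 with stress 3 correlated at 0.19, above control 3 with stress 3 at 0.15, so the numbers did not set all pairs apart. Nothing in the labels says what a number shares. Alternatives were DESeq2 1.42.0, RLE normalization, no filter on low counts, the replicate block, no called doublets, no cells rich in tumor and hepatocyte markers, monocytes without cluster 13, a mean over cells, a pseudocount of 10 CPM, each mouse left out and, added after the data were seen, a term for libraries under a median of 10000 UMIs per cell over all cells (the library term) and the list genes without called doublets or with each mouse left out. Scrublet in scanpy 1.11.5 called 3.11% to 6.38% of the annotated cells, which were kept in the main fits. The fits were first tested on simulated data. Python 3.11.15, numpy 2.4.6, pandas 2.3.3, scipy 1.17.1 and matplotlib 3.10.9 were used.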

Additional observations from a re-analysis of the deposited data

How the results depend on the processing

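Of 555 values of 45 fold changes under the alternatives, 485 kept their direction and side of the threshold, 15 passed it and 55 changed sign. The cause was not tested. With the replicate block, 1 member was called in monocytes (Spp1), in DCs and M-MDSCs (Chil3, adjusted p = 0.0052 and 0.0295, edgeR) and in cluster 12 (Arg1), where it called 1.67%, 6.28%, 1.31% and 2.27% of all genes, and the block reversed Spp1 in DCs (0.062), Maf in cluster 11 (-0.085) and Arg1 in cluster 13 (-0.028). It changed no other call. Without a filter on low counts, 1 member was called in inflammatory myeloid cells, DCs and M-MDSCs (Chil3) and in NK/T cells (Arg1), 3 in cluster 11, 4 in cluster 12, 2 in cluster 13 and 6 for a difference between clusters, where 0.39%, 3.79%, 1.65%, 2.21%, 2.33%, 1.95%, 1.77% and 0.663% of all genes were called, and Spp1 in DCs was 0.027. Leaving out 1 mouse gave 0 to 1 called members in tumor cells, DCs and M-MDSCs (Chil3, without control 2), NK/T cells (Arg1, without stress 2), cluster 12 and the cluster difference (Mrc1, without control 2), where 29.9%, 3.66%, 0.926%, 1.19%, 1.1% and 0.202% of all genes were called.

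The library term, added after the data were seen, reversed Chil3 (0.060), Gpnmb (0.0014) and Apoe (0.36) in monocytes, Arg1 (0.26), Spp1 (0.11) and Apoe (0.38) in DCs, Spp1 in B cells (-0.069), Apoe in cluster 11 (0.14), and Chil3 (0.30) and Trem2 (0.072) in cluster 12. Without cluster 13, Spp1 (0.44) and Gpnmb (0.00094) reversed in monocytes. Without called doublets, Maf reversed in monocytes (-0.026), DCs (-0.052) and cluster 11 (-0.25), and Arg1 in cluster 13 (-0.021).

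Leaving out 1 mouse changed the sign of Arg1 (-0.64 to 0.053), Mrc1 (-0.47 to 0.012), Apoe (-1.25 to 0.24) and Maf (-0.22 to 0.40) in monocytes, of Arg1 (-0.74 to 0.26), Spp1 (-0.30 to 0.43), Apoe (-1.76 to 0.35) and Maf (-0.21 to 0.52) in DCs, and of Spp1 in ECs (-0.074 to 0.46), NK/T cells (-0.012 to 0.57) and B cells (-0.27 to 0.44). In clusters it did so for Maf in 11 (-0.44 to 0.31), Trem2 (-0.81 to 0.042) and Spp1 (-0.28 to 0.53) in 12, and Arg1 (-0.12 to 0.30), Apoe (-0.53 to 0.65) and Maf (-0.11 to 0.25) in 13. With equal weight per cluster it did so for Arg1 (-0.27 to 0.65), Cd163 (-0.26 to 0.36), Spp1 (-0.39 to 0.28), Gpnmb (-1.07 to 0.33), Apoe (-1.38 to 0.019) and Maf (-0.026 to 0.47). As a mean over cells, 10 of 40 levels moved by over 1 SD, in CPM to 3423 for Arg1 and 282 for Maf in cluster 13, to 899.8 (Mrc1), 99.6 (Spp1), 385 (Apoe) and 2827 (Maf) in ECs, and to 278 (Arg1), 339 (Chil3), 669 (Apoe) and 124 (Maf) in DCs. DESeq2 gave no adjusted p for Mrc1, Chil3, Apoe and Arg1 in NK/T cells, Maf in B cells, or Mrc1 and Gpnmb in cluster 12.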
